A study of Mus musculus with 8 samples.

Results

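Enteric neurons are told apart by the transmitters and peptides they release, and 10 genes that mark those choices were followed here among the 55414 genes of the deposited table. They were picked by symbol and all 10 were found: Chat, Slc18a3 and Slc5a7 for acetylcholine, Nos1 and Vip for inhibitory motor signalling, and Tac1, Penk, Gal, Npy and Cartpt for other peptides. The 8 libraries held cells of mouse colon at 4 weeks of age, sorted with antibodies to CD24 and CD56 and labelled enteric neurons. The labels name 4 WT and 4 Emb knockdown mice and give 4 libraries of each genotype, from tubes of about 250 cells made with a Smart-seq kit. The sources used here do not give how, or in which cells, Emb (the gene of the membrane glycoprotein embigin) was lowered. No label ties a tube to 1 mouse. The p-values therefore reflect only the spread among libraries, part of which may be technical.

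Excitatory motor neurons of the gut wall release acetylcholine and tachykinins and contract the muscle. Inhibitory motor neurons release nitric oxide and vasoactive intestinal peptide and relax it. Acetylcholine is made by choline acetyltransferase (Chat), loaded into vesicles by the vesicular transporter Slc18a3, and recovered as choline by the transporter Slc5a7. Peptides are cut from precursors in dense core granules, and several of them usually occur in one enteric neuron.

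The libraries of the genotypes differed before any single gene is considered. WT totals spanned 698930 to 954191 counts and Emb knockdown totals 2024372 to 2712754, and ribosomal RNA took 5.30% to 14.4% and 31.2% to 45.3% of them. Depth and genotype therefore cannot be told apart in raw counts. For Emb itself WT replicates 1 to 4 gave 4, 6, 22 and 16 counts and the knockdown replicates 5, 25, 3 and 5 (edgeR log2 fold change -1.24 ± 0.82 SE, adjusted p = 0.529), so its counts did not separate the genotypes. Of the neuronal markers, Elavl3 and Syt1 lay above the receptor-gene background (defined with the per-length levels) in every library, at 14.8 to 25.9 and 14.1 to 23.3 times in WT. Tubb3 (0 to 2.11 times in WT), Snap25 (0.114 to 1.45), Stmn2 (0.139 to 1.88) and Prph (0.494 to 2.25) lay around it.

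Most of the 10 genes were counted few times. They summed to 72 to 126 counts per library in WT and 151 to 228 in Emb knockdown, and 18 of the 80 values were 0, 12 of them in WT. Penk alone gave 436 of these counts over the 8 libraries, followed by Nos1 with 232 and Chat with 146, and Npy and Cartpt gave 13 and 14. In CPM (counts scaled to a common library size by TMM factors), the 10 genes together held 104 ± 7.85 in WT and 109 ± 13.0 in Emb knockdown (mean ± SD of 4). The count of genes seen at least once was 5 to 9 in WT and 7 to 10 in Emb knockdown. After all libraries were thinned to an equal number of counts outside ribosomal RNA it was 4 to 9 and 5 to 8. In bulk libraries fewer cells of a type and less RNA per cell cannot be told apart.

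**Figure D1:**
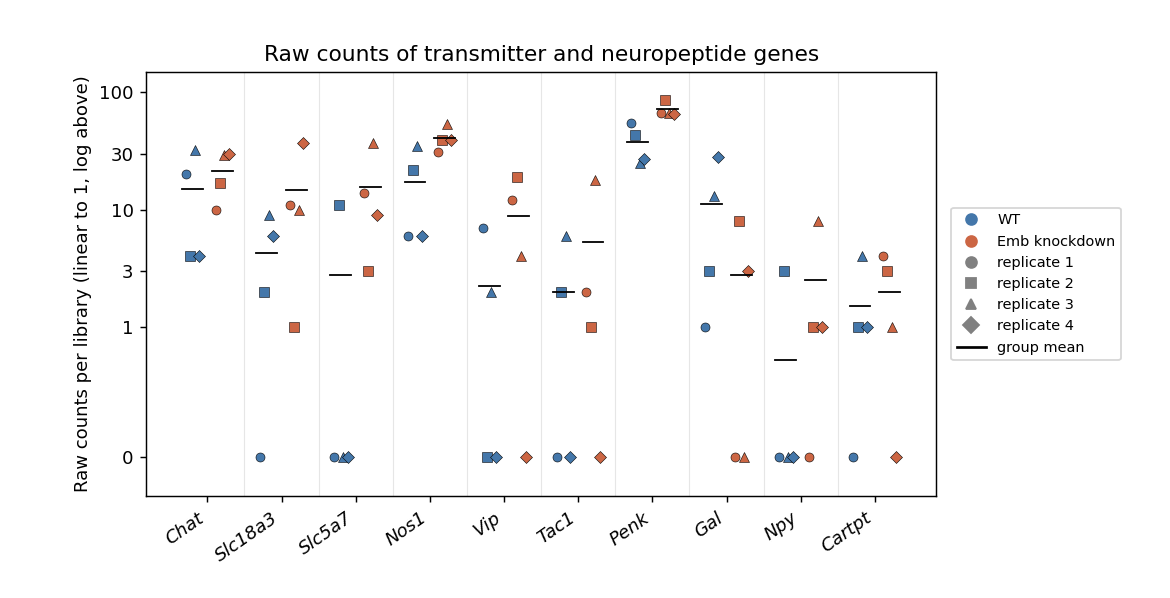
Raw counts of the 10 genes in each library, on an axis that is linear to 1 and logarithmic above; colours give the genotype, symbols the replicate and bars the group mean. Penk has 25 to 87 counts in every library, whereas Slc18a3, Slc5a7, Vip, Tac1, Gal, Npy and Cartpt are at 0 in at least 1 library.

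Levels were also compared per length, against a background. The yardstick was the summed olfactory, vomeronasal and trace amine receptor genes of each library (1478 genes of the sensory organs), taken per exonic kilobase. The median protein-coding gene lay at 0.923 ± 0.191 times this yardstick among WT libraries, against 1.56 ± 0.143 times among knockdown ones (mean ± SD of 4). On this per-length scale Penk, the precursor of the enkephalins, was the only one of the 10 above 1 in all 8 libraries. It was the highest of the 10 in 6 libraries, and Gal was the highest in the other 2, WT replicates 3 and 4. By mean level over all libraries the order was Penk (21.4 times), Gal (6.61), Slc18a3 (2.43), Chat (2.26), Npy (1.54), Nos1 (1.53), Vip (1.02), Slc5a7 (0.944), Cartpt (0.872) and Tac1 (0.532). The place of Gal rested on WT replicate 4, without which its mean was 2.84. Within genotypes Gal averaged 11.3 ± 14.8 times in WT and 1.96 ± 2.64 in knockdown, where it was number 6 of the 10, while Penk was first in both at 17.1 ± 7.57 and 25.7 ± 6.36 (mean ± SD of 4). In none of the 9 neighbouring pairs was the first gene above the second in all 8 libraries. Penk stood above Gal in 6, and Chat above Npy in 6. Slc18a3 stood above Chat in only 3, and reached 9.04 times in Emb knockdown replicate 4. Npy, with 13 counts in all, stood above Nos1 in only 2. Neighbours were therefore not separated beyond their spread. Penk stood above Chat in 8 of 8 libraries.

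**Figure D2:**
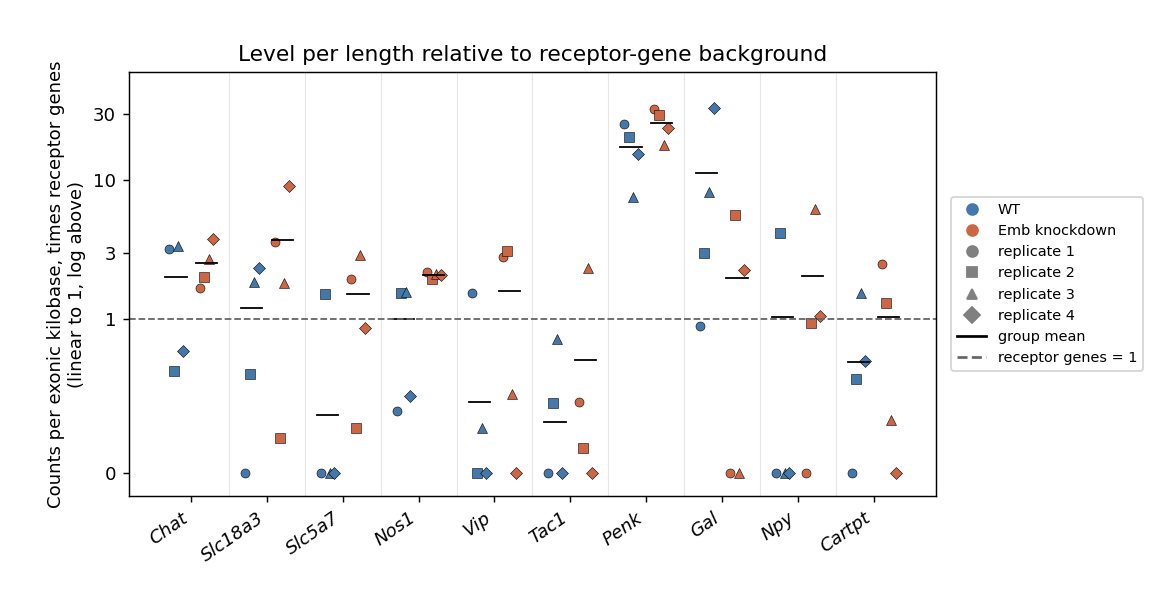
Level of each gene per exonic kilobase as a multiple of the receptor genes of that library (dashed line at 1), linear to 1 and logarithmic above; colours, symbols and bars as in the plot of raw counts. Penk lies at 7.55 to 32.2 times in all 8 libraries, and the other 9 genes scatter around the line, with Gal at 33.0 times in WT replicate 4.

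By edgeR's quasi-likelihood test, 0 of the 10 genes passed an adjusted p of 0.05 between the genotypes, where 0% of all 11353 genes tested passed. Only Penk, Nos1 and Chat had enough counts to be tested. The unadjusted p was under 0.05 in 0 of these 3, against 13.3% of all genes tested (1508 genes; 8.64% higher and 4.64% lower in Emb knockdown, or 981 and 527 genes). That split turned with the scaling, to 375 higher and 1704 lower with library totals alone and 2066 higher and 138 lower when scaled to the receptor genes. The groups did not overlap in 0 of the 3, against 8.28% of all genes tested. The DESeq2 Wald test passed 683 of the 8315 genes it gave an adjusted p (8.21%) and limma voom passed 0 of 11353, and neither passed Penk, Nos1 or Chat.

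Among the cholinergic genes, Chat (ENSMUSG00000021919, GRCm38 chromosome 14, 32408203 to 32465989, minus strand) was the most counted. WT replicates 1 to 4 gave 20, 4, 32 and 4 Chat counts, and Emb knockdown replicates 1 to 4 gave 10, 17, 29 and 30. WT replicates 1 and 3 were high and WT replicates 2 and 4 low, and the Emb knockdown libraries lay between them once scaled. Chat averaged 15.1 ± 11.5 CPM over the WT libraries against 12.5 ± 5.66 over the knockdown libraries (mean ± SD of 4). edgeR put the log2 fold change at -0.27 ± 0.73 SE with adjusted p = 0.911 and a 95% interval of -1.87 to 1.32, wide enough to hold a change of over 2-fold in either direction. Its sign turned when single libraries were left out, to 0.085 without WT replicate 1 and 0.07 without WT replicate 3.

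Slc18a3 (ENSMUSG00000100241, chromosome 14, 32462438 to 32464850, minus strand) lies inside a Chat intron on the same strand. RefSeq places its start 1059 bases downstream of the start of Chat. The genes share 0 exonic bases in GENCODE, but unspliced Chat RNA covers Slc18a3, and the sources used here do not give the counting rule. Slc18a3 had 0, 2, 9 and 6 counts in WT and 11, 1, 10 and 37 in Emb knockdown, in replicate order. Emb knockdown replicate 4 held 37 of the 76 counts and the groups overlapped. Scaled, the WT mean was 4.395 ± 3.92 CPM and the knockdown mean 9.11 ± 9.81 (mean ± SD of 4; exact permutation test, two-sided, p = 0.543). The ratio of summed scaled counts was 0.90 on the log2 scale, Emb knockdown over WT, and -0.14 without Emb knockdown replicate 4.

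Slc5a7 (ENSMUSG00000023945, chromosome 17, 54273590 to 54299034, minus strand), the choline transporter, was at 0 in WT replicates 1, 3 and 4 and had 11 counts in WT replicate 2. The Emb knockdown libraries held 14, 3, 37 and 9 counts. A count of 0 allowed up to 3.86, 2.28 and 4.22 CPM (3 counts) in WT replicates 1, 3 and 4, which covers counting error only, and Emb knockdown replicate 2 lay under each of these limits at 1.59 CPM. Slc5a7 averaged 3.16 ± 6.32 CPM over the WT libraries against 9.14 ± 7.90 over the knockdown libraries (mean ± SD of 4; exact permutation test, two-sided, p = 0.286). WT replicate 2 lay within the Emb knockdown range. The ratio of summed scaled counts was 3.08 (1.62 on the log2 scale), and it was 0.78 on the log2 scale without Emb knockdown replicate 3, which held 37 of the 63 knockdown counts. Without WT replicate 2 the WT group had 0 counts. Against a floor of 3 counts over that whole group the ratio was 8.61. That floor covers counting error only and leaves out the spread among libraries, so no smallest fold change follows from it.

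In raw counts the order of the 3 cholinergic genes was not the same in all libraries. Whether they vary together was not tested, and at such low counts sampling alone can change the order. WT replicate 1 had 20 counts of Chat with 0 of Slc18a3 and 0 of Slc5a7. WT replicate 2 had more of Slc5a7 (11) than of Chat (4), and Emb knockdown replicate 2 had 17 of Chat with 1 of Slc18a3. The Chat and Slc18a3 pair was close to even in raw counts in Emb knockdown replicate 1 (10 and 11) and replicate 4 (30 and 37). Per length Slc18a3 stood above Chat in both, at 3.58 against 1.67 and 9.04 against 3.76 times the receptor genes.

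**Figure D3:**
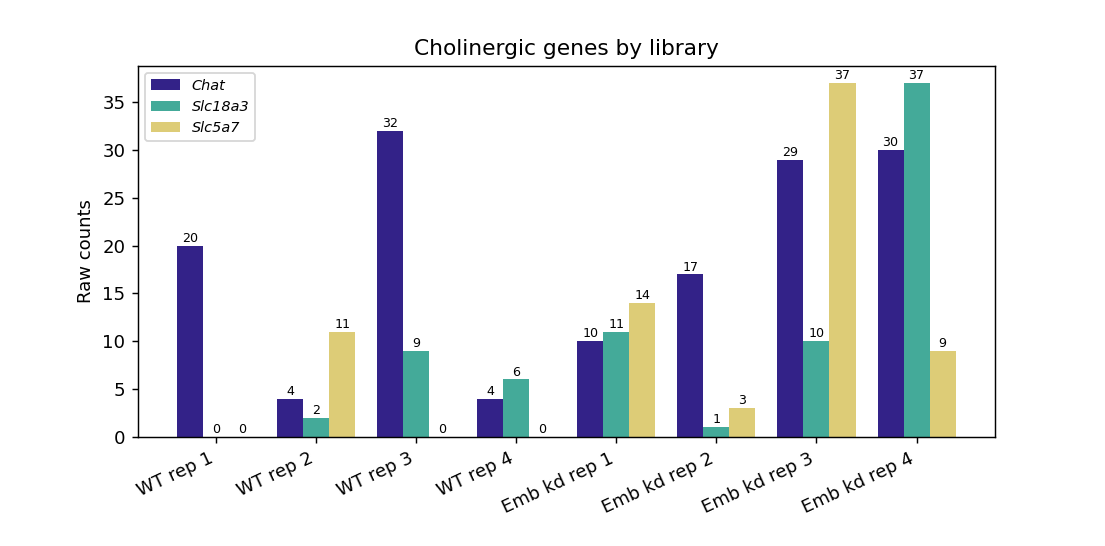
Raw counts of Chat, Slc18a3 and Slc5a7 as bars from 0 for each of the 8 libraries, with the count above each bar. Slc5a7 is at 0 in 3 of 4 WT libraries, and which of the 3 genes has the most raw counts changes between libraries.

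The sequence upstream of Slc18a3 is shown because that start lies within Chat. That of Vip is shown because Vip was at 0 in WT replicates 2 and 4 and in Emb knockdown replicate 4. Tac1 was also at 0 in libraries of both genotypes. That of Gal is shown because Gal had the widest ratio between genotypes in summed scaled counts. The 3 sequences follow. Each is the 250 bases before the start in RefSeq (GRCm38.p6), 5′ to 3′ on the gene's strand, at chr14:32464851-32465100 (minus), chr10:5638968-5639217 (plus) and chr19:3414545-3414794 (minus). Capitals mark TGACG or its reverse complement CGTCA, the core of the cyclic AMP response element.
Slc18a3: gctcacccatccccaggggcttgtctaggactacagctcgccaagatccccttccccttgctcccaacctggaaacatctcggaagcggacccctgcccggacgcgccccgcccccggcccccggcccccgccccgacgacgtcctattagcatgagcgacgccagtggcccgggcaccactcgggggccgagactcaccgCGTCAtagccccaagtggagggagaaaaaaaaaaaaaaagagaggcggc
Vip: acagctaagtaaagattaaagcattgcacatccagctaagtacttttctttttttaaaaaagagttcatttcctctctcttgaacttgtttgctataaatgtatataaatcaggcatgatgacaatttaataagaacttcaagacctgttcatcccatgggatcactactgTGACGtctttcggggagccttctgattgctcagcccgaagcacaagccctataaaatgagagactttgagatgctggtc
Gal: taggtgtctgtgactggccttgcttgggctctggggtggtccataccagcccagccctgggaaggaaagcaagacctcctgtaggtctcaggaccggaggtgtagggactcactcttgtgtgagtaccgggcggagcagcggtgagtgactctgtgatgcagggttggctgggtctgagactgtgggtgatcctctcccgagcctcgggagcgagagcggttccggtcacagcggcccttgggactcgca
Windows were found for 9 of the 10 genes, not for Penk. The core was present in 6 of the 9 and in 17.8% of all 32841 windows of this length, and the full TGACGTCA, which contains both cores, was present in that of Cartpt and in 1.55% of all windows. The window of Slc18a3 overlaps an exon of Gm2990, an antisense gene. A match is a description of letters only.

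Nos1 (ENSMUSG00000029361, chromosome 5, 117781032 to 117958840, plus strand), the neuronal nitric oxide synthase, had 6, 22, 35 and 6 counts in WT and 31, 39, 54 and 39 in Emb knockdown, in replicate order. WT replicates 1 and 4 were low, at 7.72 and 8.43 CPM, and the other 6 libraries lay between 20.7 and 29.2. The groups overlapped, at 17.02 ± 10.3 CPM for WT against 23.7 ± 4.04 for knockdown (mean ± SD of 4). edgeR gave Nos1 a log2 fold change of 0.46 ± 0.61 SE, with a 95% interval of -0.86 to 1.79 and adjusted p = 0.778. With library totals alone it was -0.27, where the median of all genes was -0.67 against 0.04 with TMM.

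Nos1 has 11151 exonic bases, the most of the 10 genes, and lay near the background in spite of its counts. It was at 0.404, 1.53, 1.55 and 0.500 times the receptor genes in WT and at 2.19, 1.92, 2.11 and 2.06 times in Emb knockdown. On this scale the groups did not overlap (0.996 ± 0.630 against 2.07 ± 0.111, mean ± SD of 4; exact permutation test, two-sided, p = 0.0286, the smallest possible with 4 against 4 and the lowest of the 10 genes). On the receptor-gene scale 11% of the 11353 tested genes did not overlap, 9.79% being higher in Emb knockdown as Nos1 was, and the median protein-coding gene went from 0.923 to 1.56 times. When the whole table was scaled to the receptor genes, Nos1 had a log2 fold change of 1.04 against a median of 0.65 (edgeR adjusted p = 0.390). An antisense gene, Gm26995, shares 268 exonic bases with Nos1 and had 53 counts in all, and without strand information reads there cannot be assigned.

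Vip (ENSMUSG00000019772, chromosome 10, 5639218 to 5647617, plus strand), the precursor of vasoactive intestinal peptide, was seen in some libraries of each genotype and not in others. Vip had 7, 0, 2 and 0 counts in WT and 12, 19, 4 and 0 in Emb knockdown, in replicate order. Emb knockdown replicates 1 and 2 and WT replicate 1 were of like level, at 8.00, 10.1 and 9.01 CPM. The group values were 2.63 ± 4.31 and 5.06 ± 4.75 CPM (mean ± SD of 4; exact permutation test, two-sided, p = 0.486). Per length Vip reached at most 1.54 times the background among WT libraries and 3.07 times among knockdown ones.

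Tac1 (ENSMUSG00000061762, chromosome 6, 7554879 to 7565834, plus strand), the precursor of substance P and neurokinin A, was the lowest of the 10 per length. Tac1 had 0, 2, 6 and 0 counts in WT and 2, 1, 18 and 0 in Emb knockdown. It was above the receptor-gene background in 1 library, Emb knockdown replicate 3, at 2.31 times. In CPM Tac1 was at 1.72 ± 2.19 and 2.90 ± 4.59 (mean ± SD of 4; exact permutation test, two-sided, p = 0.8). The log2 ratio of summed scaled counts, 0.50, was -1.87 without Emb knockdown replicate 3, and leaving out WT replicate 3 put it at 1.86.

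Penk (ENSMUSG00000045573, chromosome 4, 4133531 to 4138819, minus strand) was the best measured of the group. Penk had 55, 43, 25 and 27 counts in WT and 67, 87, 67 and 65 in Emb knockdown, in replicate order. Scaled for depth the WT libraries were at 70.8, 49.4, 19.0 and 38.0 CPM and the Emb knockdown libraries at 44.6, 46.1, 36.2 and 40.7. All Emb knockdown libraries lay within the WT range. The means were 44.3 ± 21.7 and 41.9 ± 4.44 CPM (mean ± SD of 4), and the edgeR log2 fold change was -0.08 ± 0.57 SE, with adjusted p = 0.972 and a 95% interval of -1.32 to 1.17. Its sign turned with the scaling, to 0.58 when scaled to the receptor genes (median of all genes 0.65), and without WT replicate 1, to 0.25. Per length the WT libraries held Penk at 7.55 to 25.3 times the background and the knockdown libraries at 17.9 to 32.2 times, above 95.1% to 98.4% of protein-coding genes in every library. A gene on the opposite strand, A830012C17Rik, shares 233 exonic bases with Penk and had 7 counts in all.

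**Figure D4:**
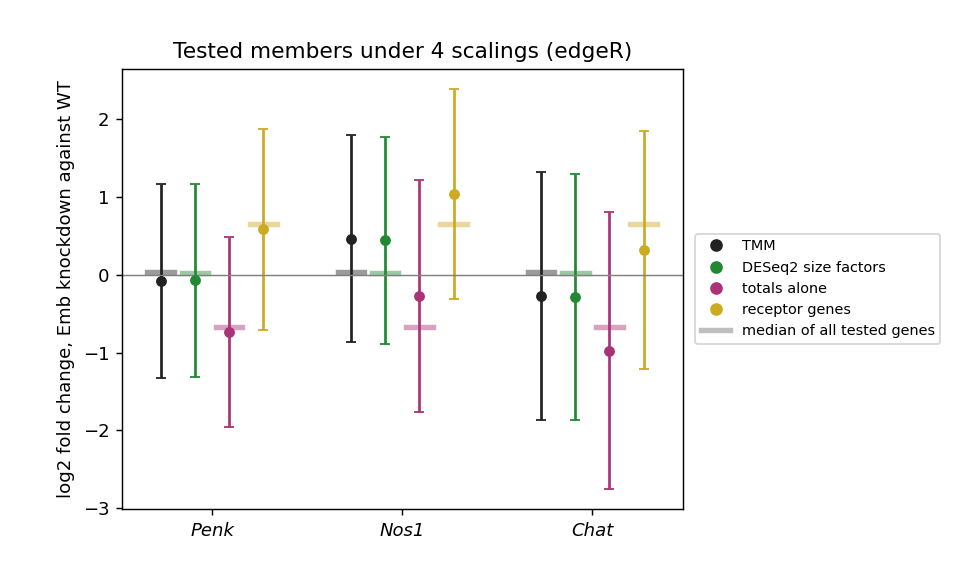
Log2 fold change of Penk, Nos1 and Chat, Emb knockdown against WT, by edgeR under 4 scalings; points are estimates, error bars 95% intervals and pale bars the median of all tested genes under the same scaling. Every interval includes 0, and the estimates move with the median, which is -0.67 with totals alone and 0.65 with receptor genes.

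Gal (ENSMUSG00000024907, chromosome 19, 3409915 to 3414544, minus strand), the precursor of galanin, had the widest ratio between genotypes in summed scaled counts. Gal had 1, 3, 13 and 28 counts in WT and 0, 8, 0 and 3 in Emb knockdown, in replicate order. WT replicates 3 and 4 were high, at 9.89 and 39.4 CPM, while WT replicates 1 and 2, at 1.29 and 3.45, lay within the Emb knockdown range of 0 to 4.24. The group values were 13.5 ± 17.6 and 1.53 ± 2.01 CPM (mean ± SD of 4; exact permutation test, two-sided, p = 0.143). The log2 ratio of summed scaled counts was -2.93, and it was -1.83 without WT replicate 4 and -4.36 without Emb knockdown replicate 2. Gal did not pass the filter on low counts; with no filter its log2 fold change was -2.78 ± 1.21 SE (edgeR unadjusted p = 0.0215, adjusted p = 0.358), where 11.2% of 48530 genes had an unadjusted p under 0.05. Gal is short, with 788 exonic bases, so per length it lay at 8.14 and 33.0 times the background in WT replicates 3 and 4.

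Npy (ENSMUSG00000029819, chromosome 6, 49822710 to 49829507, plus strand), the precursor of neuropeptide Y, had 3 counts in WT, all in replicate 2, and 0, 1, 8 and 1 in Emb knockdown. The ratio of summed scaled counts, Emb knockdown over WT, was 1.79 with an exact 95% Clopper-Pearson counting interval of 0.461 to 10.1 (exact permutation test on CPM, two-sided, p = 0.543). On the log2 scale it was -1.04 without Emb knockdown replicate 3. Cartpt (ENSMUSG00000021647, chromosome 13, 99898489 to 99901091, minus strand), the precursor of the CART peptide, had 0, 1, 4 and 1 counts in WT and 4, 3, 1 and 0 in Emb knockdown. At 1.40 ± 1.26 and 1.20 ± 1.18 CPM its groups differed by less than their spread (mean ± SD of 4; exact permutation test, two-sided, p = 0.886). Both genes were above the receptor-gene background in 3 of 8 libraries.

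The other genes of these pathways gave no adjusted call either. In this list and those that follow, counts with an unadjusted p under 0.05 stand beside 13.3% of all genes tested. Remarks on groups without overlap stand beside 8.28%. Of 23 genes for synthesis and transport of transmitters 15 were tested, with 5 higher and 10 lower in Emb knockdown and a median log2 fold change of -0.13, against 0.04 over all genes. The unadjusted p was under 0.05 in 2 of them, both higher. Hdc, which makes histamine, had 16.1 ± 10.4 CPM for WT and 189 ± 212 for knockdown (mean ± SD of 4), a log2 fold change of 3.55 ± 1.005 SE by edgeR with adjusted p = 0.295, and 2.38 without Emb knockdown replicate 2. Slc44a1, a choline transporter-like protein, had 26.5 ± 2.69 and 61.8 ± 13.4 CPM without overlap (1.22 ± 0.52 SE, edgeR adjusted p = 0.348). Slc6a2 and Slc6a4, the noradrenaline and serotonin transporters, had log2 fold changes of -1.49 and -0.97 (edgeR adjusted p = 0.529 and 0.614). For Slc6a2 it was -0.54 without WT replicate 1 and -2.65 without Emb knockdown replicate 1.

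Other enteric neuropeptides and calcium-binding markers were sparse too, with 1 of 24 tested (Ntng1, an axonal adhesion protein, log2 fold change 0.37). Per length their median member reached 0.454 ± 0.305 times the receptor genes for WT and 1.17 ± 0.139 times for knockdown (mean ± SD of 4). The same median over the 10 genes was 0.862 ± 0.582 and 1.86 ± 0.329 times.

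Among genes that process peptide precursors and form dense core granules 12 of 20 were tested, with 9 higher, 3 lower and a median of 0.44. The unadjusted p was under 0.05 in 2 of the higher and 1 of the lower. Chga, the granule protein chromogranin A, had 82.7 ± 69.7 CPM for WT and 13.3 ± 16.6 for knockdown (mean ± SD of 4), a log2 fold change of -2.64 ± 1.006 SE by edgeR with adjusted p = 0.320, and -4.04 without Emb knockdown replicate 1. Cpd, a carboxypeptidase, had a log2 fold change of 1.98 (1.19 without Emb knockdown replicate 3), the protease Ctsl 3.36 (1.67 without Emb knockdown replicate 1) and the convertase Furin -0.92 (edgeR adjusted p of the 3 = 0.329, 0.322 and 0.587).

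Of 26 receptors for the transmitters of the 10 genes 12 were tested, with 5 higher, 7 lower and a median of -0.09. The unadjusted p was under 0.05 in 2 of the higher and 1 of the lower. Chrna4, a nicotinic acetylcholine receptor subunit, was at 29.8 ± 22.9 CPM for WT and, without overlap, 5.38 ± 2.95 for knockdown (mean ± SD of 4), a log2 fold change of -2.46 ± 0.73 SE by edgeR with adjusted p = 0.295, and -1.78 without WT replicate 3. Vipr2, a receptor for vasoactive intestinal peptide, had a log2 fold change of 2.96 (0.55 without Emb knockdown replicate 3). Oprk1, the kappa opioid receptor, was at 2.07 and Gpr160, an orphan receptor proposed to bind CART peptide, at 1.87 (0.88 without Emb knockdown replicate 1), with edgeR adjusted p of 0.322 and 0.414.

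In the nitric oxide pathway 15 of 21 genes were tested, with 9 higher, 6 lower and a median of 0.74. The unadjusted p was under 0.05 in 1 of each direction. Nos2, the inducible synthase, had 32.8 ± 9.06 CPM for WT and 11.98 ± 6.06 for knockdown (mean ± SD of 4), a log2 fold change of -1.44 ± 0.59 SE by edgeR with adjusted p = 0.329. Prkg1, the kinase that cyclic GMP activates, was at 3.21, and at 0.20 without Emb knockdown replicate 1, which held 903.4 CPM. Ass1, which recycles citrulline towards arginine, was at -1.08 and Dynll1, a light chain that binds the neuronal synthase, at 1.24.

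Of 22 transcription factors tied to transmitter identity 18 were tested, with 10 higher, 8 lower, a median of 0.66 and 0 with an unadjusted p under 0.05. Hand2, which neuronal differentiation in the gut requires, had a log2 fold change of 2.21 (1.03 without Emb knockdown replicate 3), and Tbx3, Etv1 and Rest had 1.11, 1.10 and 1.53, the last at -0.25 without Emb knockdown replicate 1. Of 20 pan-neuronal markers 10 were tested, with 6 higher, 4 lower and a median of 0.07. The deubiquitinase gene Uchl1 had the one unadjusted p under 0.05 (log2 fold change 3.32 ± 1.40 SE, and 1.97 without Emb knockdown replicate 1; edgeR adjusted p = 0.342). The RNA-binding Elavl3 was at -0.97 and the vesicle calcium sensor Syt1 at -0.95 (edgeR adjusted p = 0.513 and 0.531). Both were without overlap between groups, where 8.28% of all genes tested did not overlap. When scaled to the receptor genes they were at -0.34 and -0.33, where the median of all genes was 0.65 against 0.04 with TMM.

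Markers of other cells were present beside the 10 genes in both genotypes, and their part in the values above was not tested. Of 10 glial markers 8 were tested, with 6 higher and 2 lower in Emb knockdown. At an unadjusted p under 0.05, 3 of the 8 were higher and 0 lower, against 8.64% and 4.64% of all genes tested. Whether these shares differ was not tested. Apoe, an apolipoprotein that macrophages make too, had 26.7 ± 21.01 and 830.5 ± 471 CPM (mean ± SD of 4), and Entpd2, a glial nucleotidase, 18.1 ± 21.2 and 286 ± 444 (1 knockdown library at 949.3). Enteroendocrine markers, whose cells make peptides as well, summed to 119 to 270 CPM in WT and 56.7 to 132 in Emb knockdown, with 5 of 16 tested and Chga the one with an unadjusted p under 0.05. After Chga the most abundant of them were the transcription factor Fev (15.7 ± 19.6 and 1.75 ± 1.61 CPM) and Tph1, which makes serotonin (13.4 ± 9.92 and 13.1 ± 10.2). The defining hormone genes Gcg and Insl5 had 9 and 4 counts in all of WT and 6 and 13 in Emb knockdown. In mean CPM Gcg was lower in knockdown (2.59 and 0.84) and Insl5 higher (0.76 and 1.76). Other peptide hormone genes of the list also had higher means in knockdown. They were Pyy (1.14 ± 2.28 and 3.53 ± 3.56), Cck (3.85 ± 3.08 and 9.58 ± 12.5), Sst (2.81 ± 5.62 and 8.68 ± 10.3) and Nts (1.21 ± 0.94 and 3.07 ± 3.60; mean ± SD of 4). The groups overlapped for each of the hormone genes named. None of these hormone genes had enough counts to be tested. Epithelial markers summed to 306 to 673 and 429 to 563 CPM, led by Lgals4, Muc2 and Tff3, with 8 of 15 tested and 1 with an unadjusted p under 0.05. Leukocyte markers summed to 2126 to 7637 and 3787 to 6553 CPM, with 13 of 21 tested, 4 higher and 1 lower at an unadjusted p under 0.05. The 3 most abundant did not go one way. Itgam, an integrin of myeloid cells, had 3800 ± 1990 CPM for WT and 393 ± 233 for knockdown, whereas the macrophage genes C1qa (1485 ± 763 and 3937 ± 999) and Adgre1 (61.1 ± 38.6 and 269 ± 96.9) stood higher in knockdown (mean ± SD of 4; edgeR adjusted p = 0.275, 0.356 and 0.311). The other 2 genes higher at an unadjusted p under 0.05 were C1qb and C1qc. Markers of fibroblasts, muscle and vessels summed to 574 to 2291 and 556 to 1715 CPM, led by Pecam1, Col1a1 and Col1a2. Of these 17 markers 13 were tested, with 6 higher and 7 lower in Emb knockdown. At an unadjusted p under 0.05, 2 were higher and 0 lower. Pecam1 had 1207 ± 661 CPM for WT and 441 ± 596 for knockdown. Col1a1 (60.9 ± 52.8 and 157 ± 131) and Col1a2 (24.4 ± 16.9 and 97.4 ± 44.1) stood higher in knockdown (mean ± SD of 4).

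The genes whose pattern over the 8 libraries was most like the 3 tested members were sought among 125 tested genes of these lists, by Pearson r of log2 CPM. They were Nos1ap (r = 0.872) and Hand2 (0.787) for Nos1, Cadps2 (0.713) and Tff3 (0.702) for Penk, and Prkg2 (0.713) and Nos3 (0.698) for Chat. All genes of a library share its depth and scaling, and the highest of 125 values over 8 points is given as a description only.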

How the data were processed

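The values are raw whole-number counts of the 55414 genes, deposited as a single table that holds 1 column for each library. Per the submitters' processing notes, cutadapt and the build mm10 were used. Aligner, counter, strand setting and annotation: not given in the sources used. Coordinates and exonic lengths came from GENCODE M21 on GRCm38, where 52133 of 55414 identifiers were found.

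The test was the quasi-likelihood F test of edgeR 4.0.16 (R 4.3.3), after filterByExpr (10 counts minimum, 15 in total) and TMM scaling, with robust fits, group as the only term and Benjamini-Hochberg adjustment over the 11353 genes tested, at a threshold of 0.05. CPM uses the TMM-scaled sums of tested genes, and a prior count of 2 on the log2 scale. SE and intervals come from the F statistic. Single values were compared by exact two-sided permutation over 70 assignments of the libraries (smallest p 0.0286). Reads carry no molecular identifiers, so counting limits cover counting error only. DESeq2 1.42.0, limma 3.58.1 voom and other scalings, filters and left-out libraries were alternatives.

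The 10 genes and all lists were chosen with earlier results of these data known. All 10 are named; the pathway lists add their 4 genes of lowest unadjusted p and the lists of other cells their 3 of highest mean CPM. Genes named beyond this rule (Tubb3, Snap25, Stmn2, Prph, Gcg, Insl5, Pyy, Cck, Sst, Nts, C1qb, C1qc) were chosen after their values were seen. Some genes of the lists, and the sum over glial markers, are not reported here.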

Additional observations from a re-analysis of the deposited data

Results flagged for a closer look

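Of 20 groups of 4 libraries (10 genes in 2 genotypes), 5 held 1 library far from the other 3, all of them high. By chance about 1 group in 20 is marked when values are continuous, which counts at or near 0 are not, so nothing is read from the number of such groups. Slc5a7 was at 12.6 CPM in WT replicate 2 and at 0 in the other WT libraries. Vip was at 9.01 CPM in WT replicate 1. Tac1 was at 9.73 CPM in Emb knockdown replicate 3. Npy was at 3.45 CPM in WT replicate 2 and at 4.32 CPM in Emb knockdown replicate 3.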

How the results depend on the processing

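None of the 10 genes passed an adjusted p of 0.05 under any of the 17 alternatives run, where each was tested. The number of all genes that passed was 0 in the main analysis, 683 by DESeq2, 910 with no filter on low counts, 2 with library totals alone and 0 to 1 with single libraries left out (1 without WT replicate 1). Genes with an unadjusted p under 0.05 numbered 1508, 5455 with no filter, and 1171 to 1469 with single libraries left out. With no filter 1 of the 10 genes, Gal, had an unadjusted p under 0.05; the larger number of genes tested is part of that setting. Signs of the 3 tested genes turned as follows. Chat was at -0.27 on the log2 scale, and at 0.32 scaled to the receptor genes and -0.57 to 0.085 with single libraries left out. Nos1 was at 0.46, and at -0.27 with totals alone. Penk was at -0.08, and at 0.58 scaled to the receptor genes, 0.17 with no filter, 0.093 by limma voom and -0.33 to 0.25 with single libraries left out. The receptor and total scalings move the median of all genes as well; the cause of the other turns was not tested.

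Deviations of same-numbered replicates from their group means had r across genes of 0.0113 to 0.0337, and those of other pairs -0.0406 to 0.0178. Values this small in sparse counts cannot decide whether the numbers pair the libraries. With the replicate block 918 genes had an unadjusted p under 0.05 and Penk was at 0.060; not every library correlated best with its own number. Slc5a7 and Npy have no value without WT replicate 2, which leaves WT at 0. DESeq2, limma voom and the block were run on tested genes only, so they give no value for the 7 genes under the filter. At 0 to 87 counts per gene and library, a level 2-fold higher in Emb knockdown lay within the 95% intervals of all 3 tested genes.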
